A study of Homo sapiens with 6 samples.

Results

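The genes described here are 51 genes of DNA replication and S phase, taken by gene symbol from a list that covers the replicative helicase and its loaders, the polymerases with their clamp, the enzymes that supply deoxynucleotides and the regulators of S-phase entry. All 51 were found among the 23569 genes of the table, and all 51 had a mean of at least 0.1 FPKM (fragments per kilobase of gene, scaled to the library total), the level above which genes were tested. RNA-seq was performed on TFK1 cells, a human cholangiocarcinoma cell line. There were 3 libraries from negative control cells (oeNC) and 3 from cells overexpressing the chaperone-dependent ubiquitin ligase STUB1 (oeSTUB1). Both groups were labelled as given no treatment. According to the study's methods, the coding sequence was delivered by a lentiviral pHAGE vector and the cells were selected with puromycin. The methods do not say what the negative control cells carried, or whether they were transduced and selected in the same way. The study's methods state in general that experiments were repeated independently, but no source says of these libraries that the 3 of a group came from separate cultures, so p-values measure the spread between these libraries, which may be technical. The study asked which genes respond to STUB1 together with UHRF1 and DNMT1, the factors that copy DNA methylation onto newly replicated DNA.

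Replication starts from origins bound by the origin recognition complex. In G1 phase, CDC6 and CDT1 load the MCM2-7 helicase there, and geminin (GMNN) blocks CDT1 afterwards so that each origin is used once per cycle. The kinase CDC7 with its partner DBF4, together with cyclin E and CDK2, then turns the loaded helicase into an active fork with CDC45, the GINS complex and MCM10, behind which the polymerases copy the template. Many of these genes are transcribed by E2F factors at the passage from G1 into S phase, and their RNA levels in a culture therefore follow the share of cells in that window. In bulk RNA, a smaller share of cells in S phase and less RNA in each such cell cannot be told apart.

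The promoters of this module were searched for 4 words of 8 bases of the E2F type (TTTGGCGC, TTTCGCGC, TTTCCCGC and TTTGCCGC, on both strands) in the RefSeq promoter windows of GRCh38.p14, which run from 250 bases before to 50 bases after a gene's start. An entry was found for 43 of the 51 genes, and 22 of these (51.2%) held at least 1 word, against 6.51% of the 11980 tested genes with an entry. The general promoter word CCAAT stood in 25 of the 43 (58.1%) and in 42.1% of the tested genes. Of the 9 genes that passed the test in one of the fits described below, MCM6, RFC3, CDT1 and POLA1 held an E2F-type word, ORC2, MCM10 and FEN1 held none in this window, and RPA2 and CCNE2 had no entry that was used. The median log2 fold change between the groups was 0.10 over the 22 genes with a word and 0.15 over the other 21 with an entry. A match is a description of the letters and not a binding site. The 90-base stretches that hold the words in those 4 genes, and in E2F1 as the gene of a family member itself, are printed below in the direction of the gene, with the matched words in capitals.
MCM6: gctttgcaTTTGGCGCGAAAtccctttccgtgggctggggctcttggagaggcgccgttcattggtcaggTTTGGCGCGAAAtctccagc
RFC3: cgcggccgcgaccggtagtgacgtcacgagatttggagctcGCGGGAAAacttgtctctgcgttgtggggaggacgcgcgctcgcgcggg
CDT1: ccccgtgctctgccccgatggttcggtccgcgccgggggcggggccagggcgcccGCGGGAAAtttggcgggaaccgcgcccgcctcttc
POLA1: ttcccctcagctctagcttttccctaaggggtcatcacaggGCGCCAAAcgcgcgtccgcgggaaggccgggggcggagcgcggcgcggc
E2F1: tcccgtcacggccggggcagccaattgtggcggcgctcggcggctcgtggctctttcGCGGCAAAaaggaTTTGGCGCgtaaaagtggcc

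The MCM6 stretch lies at chr2:135876514-135876603 on the minus strand and holds 4 matches, arranged as the same 12-base run in 2 copies, in each of which a word on one strand overlaps a word on the other. The first begins 152 bases before the start of the gene. In RFC3 (chr13:33818053-33818142, plus strand) and CDT1 (chr16:88803699-88803788, plus strand) a single word on the opposite strand begins 55 and 35 bases before the start. In POLA1 (chrX:24693740-24693829, plus strand) the word begins 137 bases before the start. The E2F1 stretch (chr20:33686386-33686475, minus strand) holds 2 words, which begin 33 and 20 bases before the start.

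STUB1 itself was read first as the check of the labels. It had 32.9, 33.0 and 30.9 FPKM in oeNC and 61.4, 75.0 and 61.9 FPKM in oeSTUB1, a 2.04-fold difference (log2 fold change 1.03, SE 0.10, limma with Benjamini-Hochberg adjustment, adjusted p = 0.00064). Fragments of the vector's coding sequence and of the cell's own gene are counted together in this value. Library totals ranged from 33106564 to 36744521 fragments, and the 51 genes had between 292 and 21574 fragments in a library. KRT8 and KRT18, keratins of simple epithelia, had at least 1884 and 2147 FPKM in every library and KRT7, a keratin of bile duct epithelium, had 482 to 872 FPKM. KRT19, another bile duct keratin, had 0.374 to 0.529 FPKM in oeNC and 2.51 to 3.41 FPKM in oeSTUB1. The summed level of the 7 biliary markers was 7419 to 7996 FPKM in oeNC and 4724 to 6263 FPKM in oeSTUB1, that of 7 fibroblast markers 1.28 to 2.33 and 2.12 to 4.03 FPKM, and that of 6 hepatocyte markers 194 to 197 and 95.1 to 127 FPKM. Of these, 1 biliary marker (KRT19) was higher and 4 of 7 were lower, 0 of the 2 tested fibroblast markers and 2 of the 3 tested hepatocyte markers (both lower) passed, and 3 fibroblast and 2 hepatocyte markers stayed under 0.1 FPKM in every library. The part of these shifts in the results below was not tested. The library oeSTUB1-2 stood apart from the rest: over all tested genes its log2 difference from oeNC correlated with gene length with a Spearman rho of -0.37, against 0.11 in oeSTUB1-1 and 0.04 in oeSTUB1-3, so results are given with and without it.

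The replication genes as a group differed little between the 2 cell populations. The median log2 fold change over the 51 genes was 0.11, against 0.02 over all 15353 tested genes, and the values ran from -0.46 for CDT1 to 0.53 for CCNE2. Log2 fold changes were above 0 for 34 genes and below 0 for 17, where 52.6% of all tested genes were above 0. Without oeSTUB1-2 the median was 0.04, against 0.03 over all genes. The 95% interval of the fold change lay within 2-fold in either direction for 51 of 51 genes (80.0% of all tested genes) and within 1.5-fold for 47 of 51 (52.8%), with CDT1 reaching furthest down (-0.81 on the log2 scale) and CCNE2 furthest up (0.77). All tested genes include genes of lower level than any member, and these shares were not matched for level. The median absolute log2 fold change of 0.15 was close to that of the 8979 tested genes with at least the mean level of the lowest member, 2.90 FPKM, which was 0.17.

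In the comparison of all 6 libraries, 2 genes were higher in oeSTUB1 at an adjusted p under 0.05, CCNE2 and RFC3, against 7.01% of all tested genes. One gene, ORC2, was lower, against 6.59% of all tested genes. In limma, 0 of the 51 genes had both an adjusted p under 0.05 and an absolute log2 value over 1, against 5.20% of all tested genes. In the same fit, 12 of the 51 had an unadjusted p under 0.05 in either direction, against 29.7% of all tested genes. In limma-voom on recovered fragments, 3 of the 51 (ORC2, RFC3 and CCNE2) had an adjusted p under 0.05 with no minimum fold, against 14.1%. When oeSTUB1-2 was left out, which leaves 3 libraries against 2, the replicates of these genes were closer and 6 genes were higher (MCM10, RFC3, POLA1, RPA2, FEN1 and CCNE2), against 14.8% of all tested genes, while 3 were lower (MCM6, ORC2 and CDT1), against 12.0%. Removing each library's trend with gene length from all 6 libraries gave 5 higher (MCM10, POLA1, RPA2, FEN1 and CCNE2), against 10.9%, and 3 lower (MCM6, ORC2 and CDT1), against 10.7%. In each of these fits, the share of the 51 genes that passed was below the share over all tested genes in both directions.

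**Figure D1:**
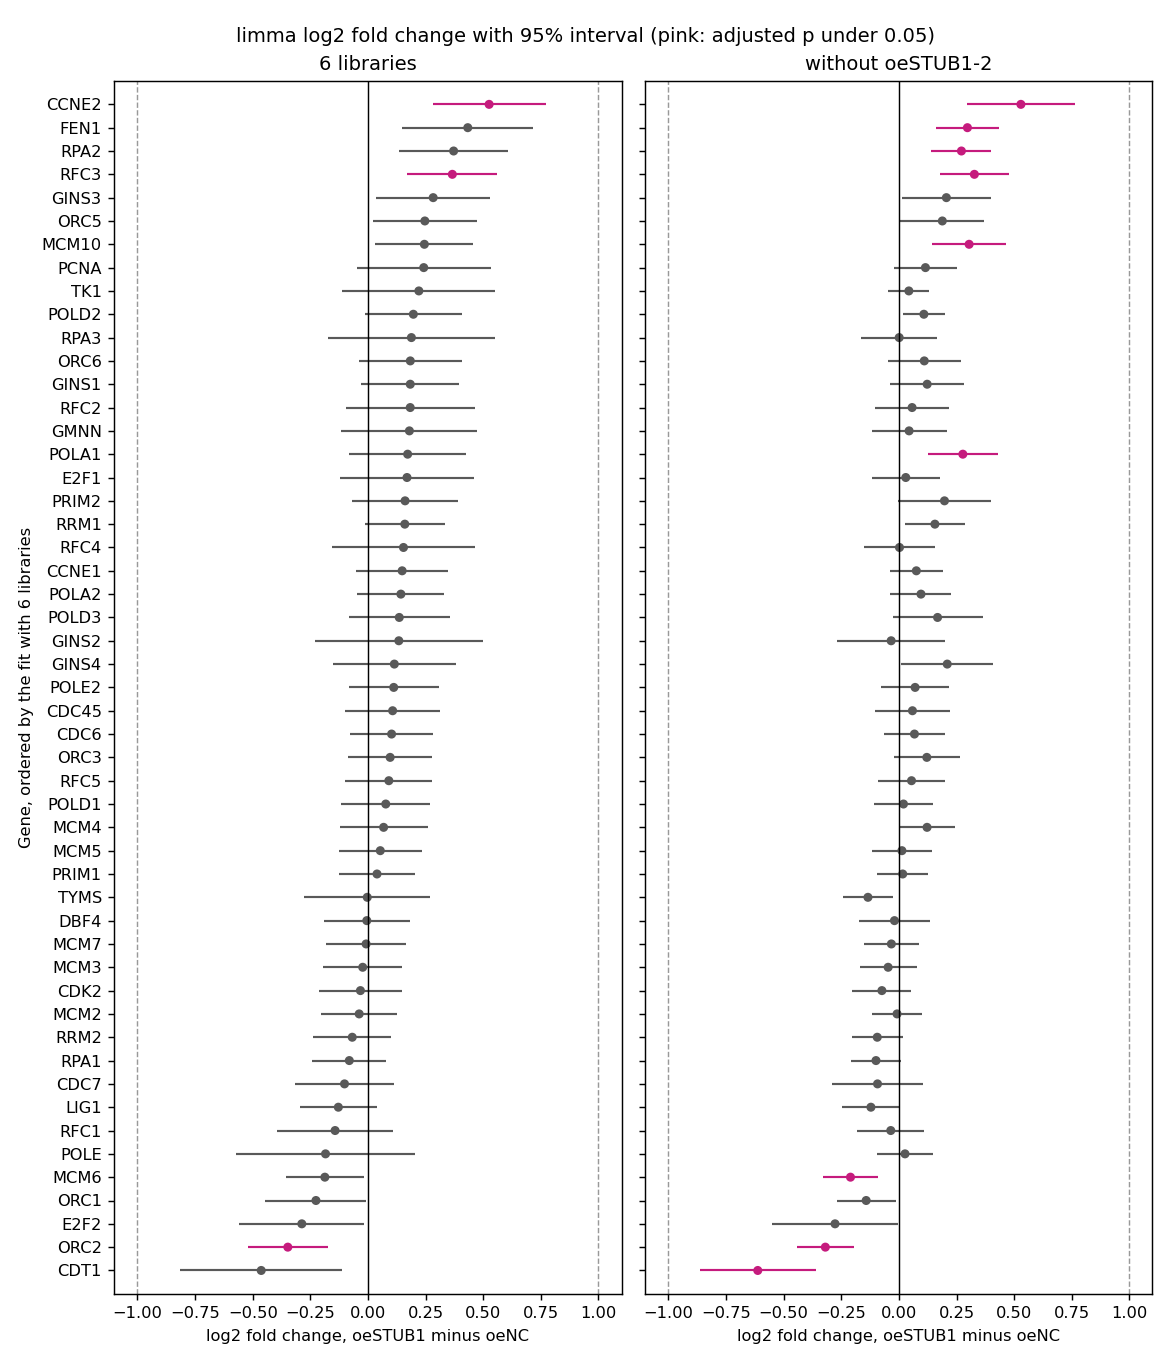
Each point is the limma log2 fold change of one gene (oeSTUB1 minus oeNC) and each line its 95% interval, for the fit with 6 libraries on the left and without oeSTUB1-2 on the right, with genes in the same order; pink marks an adjusted p under 0.05 and the dashed lines mark a 2-fold difference. On the left 3 genes are pink and all 51 intervals stay inside the dashed lines, and on the right 9 genes are pink.

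All 3 oeSTUB1 libraries lay above all 3 oeNC libraries for 15 genes (ORC3, ORC5, GINS3, MCM10, PCNA, RFC3, POLA2, PRIM2, POLD2, RPA2, FEN1, RRM1, TK1, CCNE1 and CCNE2), where 21.5% of all tested genes had this order. The opposite order was seen for 7 genes (MCM6, ORC1, ORC2, CDT1, RPA1, LIG1 and E2F2), where 17.3% of all tested genes had it.

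The 3 oeSTUB1 libraries did not carry the same picture of these genes. The median log2 difference from the oeNC mean over the 51 genes was 0.08 in oeSTUB1-1, 0.16 in oeSTUB1-2 and 0.01 in oeSTUB1-3, with 37, 36 and 27 genes above 0, while the medians over all tested genes were 0.03, 0.01 and 0.03. In oeSTUB1-1 and oeSTUB1-3 the same genes marked both ends of the range, CDT1 (-0.60 and -0.62) and CCNE2 (0.61 and 0.45). In oeSTUB1-2 the ends were POLE, the catalytic subunit of the leading-strand polymerase (-0.61), and FEN1, the nuclease that trims Okazaki fragments (0.70). Of the 51 genes, 22 were above the oeNC mean in all 3 libraries, 9 were below it in all 3, and 20 were mixed. oeSTUB1-2 was the highest of the 3 oeSTUB1 libraries for 33 genes and the lowest for 12.

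**Figure D2:**
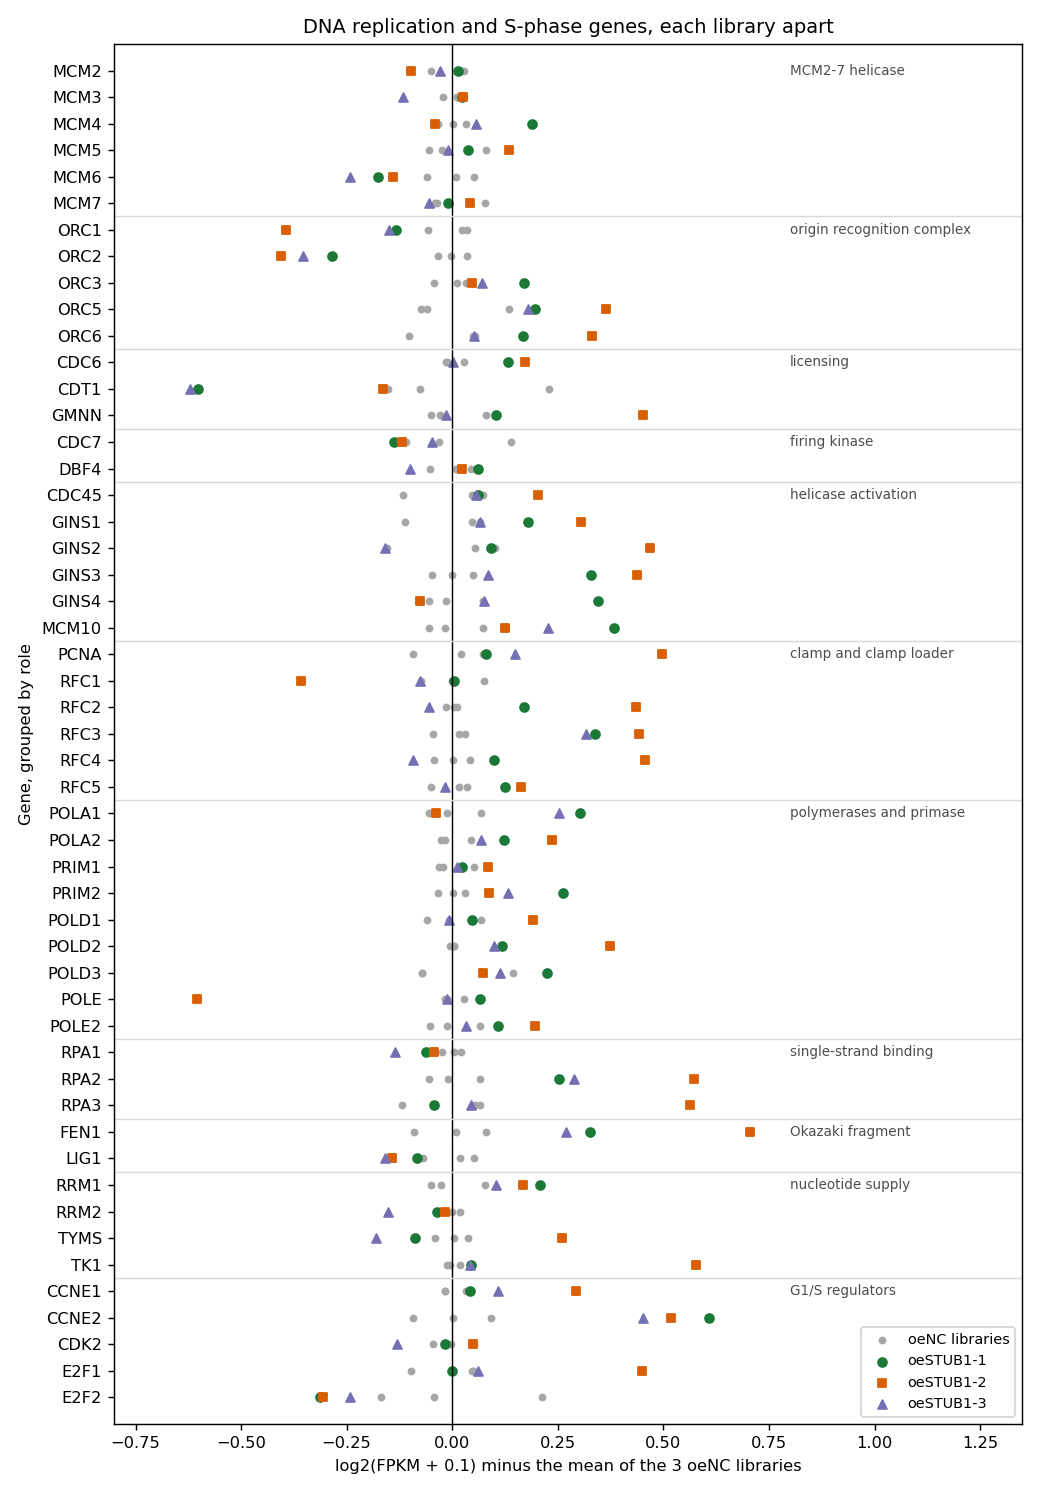
Log2(FPKM + 0.1) of each of the 51 genes in each library minus the mean of the 3 oeNC libraries, with genes grouped by role; grey points are the 3 oeNC libraries. The oeSTUB1-2 squares stand to the right of the other oeSTUB1 points for 33 genes, CDT1 lies near -0.6 in the other oeSTUB1 libraries only, and CCNE2 and RFC3 lie to the right of the grey points in every oeSTUB1 library.

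The pattern of oeSTUB1-2 ran with gene length. Over the 51 genes, the Spearman correlation of the log2 difference with length was -0.49 in oeSTUB1-2, 0.16 in oeSTUB1-1 and 0.05 in oeSTUB1-3, as a description over genes that share these libraries. A length relation was also seen within oeNC, where the difference of oeNC-1 from the other control libraries had a rho of -0.42 over the same genes, and oeNC-2 and oeNC-3 had -0.03 and 0.29. In oeSTUB1-2 the 17 shortest genes (1365 to 2628 bases) had a median log2 difference of 0.44 and all 17 were above the oeNC mean, among them PCNA, TK1, FEN1, RFC2, RFC4, RPA2 and RPA3. The 17 genes of middle length (2664 to 3848 bases) had a median of 0.02 and the 17 longest (3952 to 11245 bases) of 0.09, with 9 and 10 above the mean. In oeSTUB1-1 the medians of the short, middle and long genes were 0.09, 0.01 and 0.13, and in oeSTUB1-3 they were 0.04, -0.05 and 0.00. The coefficient of variation of a gene between replicates had a median of 4.26% in oeNC, 7.24% in oeSTUB1 and 3.93% between oeSTUB1-1 and oeSTUB1-3. The last value rests on 2 libraries and the others on 3, so it is not strictly comparable with them. A coefficient over 10% was seen for 2 genes in oeNC and for 18 genes in oeSTUB1.

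**Figure D3:**
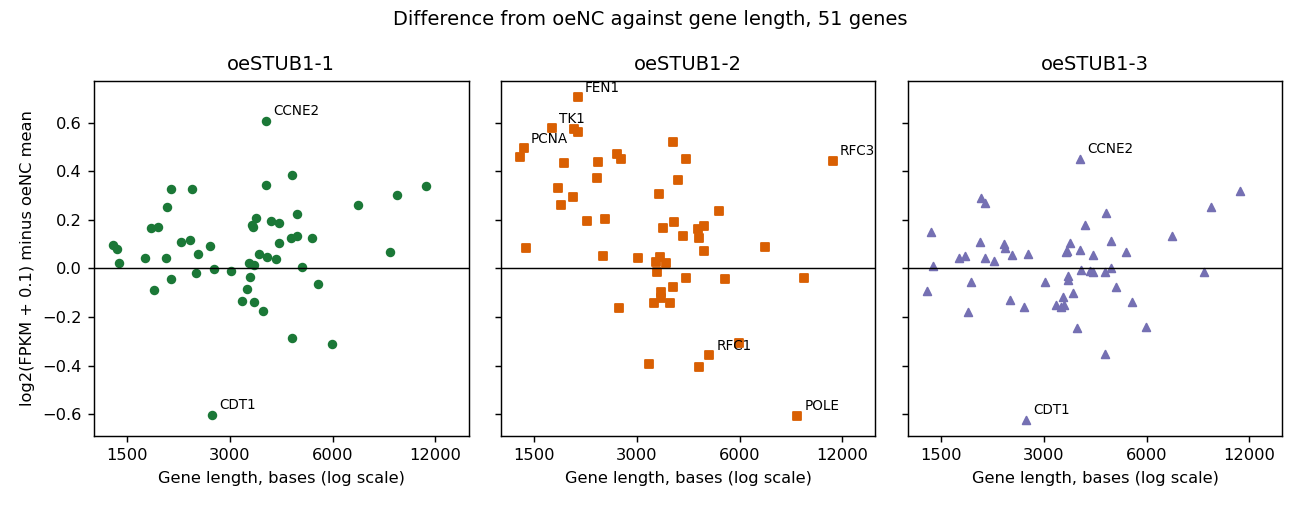
Log2 difference from the oeNC mean against gene length in bases (log axis) for the 51 genes in each oeSTUB1 library. In oeSTUB1-2 all 17 of the shortest genes lie above 0 and POLE, RFC1 and others of the long genes lie below it, with RFC3 as the longest gene standing above 0, whereas the points of oeSTUB1-1 and oeSTUB1-3 show rho values of 0.16 and 0.05.

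The 3 genes that were lower in oeSTUB1 in one of these fits, ORC2, CDT1 and MCM6, act in origin licensing. ORC2, a core subunit of the origin recognition complex, had 14.7, 15.0 and 15.4 FPKM in oeNC and 12.3, 11.3 and 11.7 FPKM in oeSTUB1. All 3 oeSTUB1 values lay below all oeNC values, with means of 15.0 ± 0.363 and 11.8 ± 0.498 FPKM (SD, n = 3 each). The log2 fold change was -0.35 (SE 0.08, limma, adjusted p = 0.022), and -0.32 without oeSTUB1-2 (adjusted p = 0.0058). The call was lost without oeNC-1 (adjusted p = 0.092), oeNC-2 (0.11), oeNC-3 (0.094) or oeSTUB1-3 (0.061), with log2 fold changes between -0.38 and -0.32 over the libraries left out. The other 4 subunits among the replication genes listed did not pass the test. ORC1, which hydrolyses ATP in the complex, had a log2 fold change of -0.23, and ORC3, ORC5 and ORC6 had 0.10, 0.25 and 0.18, so the subunits did not share a direction. ORC4, a further subunit counted with the other genes of the fork, had 6.76, 5.95 and 6.81 FPKM in oeNC and 5.09, 5.18 and 5.26 FPKM in oeSTUB1. Its log2 fold change was -0.32 (limma, adjusted p = 0.056), and -0.32 without oeSTUB1-2, where it passed (adjusted p = 0.025). ORC4 also passed in limma-voom (adjusted p = 0.043) but not with the length correction (adjusted p = 0.082). ORC2 and ORC4 lie on chromosome 2, where the median log2 fold change of 1031 tested genes was -0.21 (-0.18 without oeSTUB1-2). The part of that shift in their values was not tested.

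CDT1, the loading factor that is limited to G1, had 17.02, 17.9 and 22.2 FPKM in oeNC and 12.4, 16.87 and 12.3 FPKM in oeSTUB1. The groups did not overlap, but oeSTUB1-2 stood just below the lowest oeNC library while the other 2 were well below it. On the log2 scale the difference was -0.46 (SE 0.15), which did not pass with 6 libraries (adjusted p = 0.085), and -0.61 without oeSTUB1-2, which did (limma, adjusted p = 0.0070). CDC6, its loading partner, had a log2 fold change of 0.10 and geminin, its inhibitor, 0.18. Without oeSTUB1-2 these were 0.07 and 0.04, and neither gene passed in either fit.

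The MCM2-7 helicase, a ring of 6 related subunits, was expressed at 30.6 (MCM5) to 104 FPKM (MCM7) on average in oeNC, and its subunits had log2 fold changes between -0.19 and 0.07. MCM6 had 50.3, 48.8 and 46.5 FPKM in oeNC and 42.9, 44.0 and 41.0 FPKM in oeSTUB1. It was the only subunit without overlap between the groups. The difference on the log2 scale was -0.19 in the fit with 6 libraries (adjusted p = 0.13) and -0.21 without oeSTUB1-2 (limma, adjusted p = 0.021). MCM6 also lies on chromosome 2, and its log2 fold change was close to the median of that chromosome. RRM2, another gene of the module on chromosome 2, had a log2 fold change of -0.07 with overlapping groups and did not pass in either fit. The part of that chromosome's shift in the values of MCM6 and RRM2 was not tested. MCM2 had 36.2, 36.1 and 34.3 FPKM in oeNC and 35.9, 33.2 and 34.8 FPKM in oeSTUB1. These values overlapped, and the log2 fold change was -0.04 with a 95% interval from -0.20 to 0.13 (adjusted p = 0.76). The remaining subunits, MCM3, MCM4, MCM5 and MCM7, had values between -0.02 and 0.07 and did not pass in either fit.

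Of the factors that fire origins, the kinase CDC7 and its activator DBF4 had log2 fold changes of -0.10 and -0.01, with overlapping groups. The 6 genes of helicase activation were all above 0, from 0.11 to 0.28, and none passed with 6 libraries. MCM10, which helps the assembled helicase to start unwinding, had 13.3, 12.9 and 14.1 FPKM in oeNC and 17.5, 14.6 and 15.7 FPKM in oeSTUB1. Every oeSTUB1 library was above every oeNC library, oeSTUB1-2 by the smallest margin. Its log2 fold change was 0.24 (adjusted p = 0.12) with 6 libraries and 0.30 (limma, adjusted p = 0.017) without oeSTUB1-2. Among the other members of this group, the 4 GINS subunits and CDC45, the log2 fold changes without oeSTUB1-2 ran from -0.03 (GINS2) to 0.21 and the lowest adjusted p was 0.11.

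RFC3, a small subunit of the clamp loader that places the PCNA ring on DNA, was higher in oeSTUB1. It had 5.76, 5.46 and 5.70 FPKM in oeNC and 7.15, 7.70 and 7.05 FPKM in oeSTUB1. The groups were well separated, with means of 5.64 ± 0.159 and 7.30 ± 0.351 FPKM (SD, n = 3 each). The log2 fold change was 0.37 (SE 0.08, limma, adjusted p = 0.028), and 0.33 without oeSTUB1-2 (adjusted p = 0.010). With the length correction it was 0.47 and no longer passed (adjusted p = 0.055). Leaving out any one of the other 5 libraries also ended the call, with adjusted p between 0.056 (without oeSTUB1-3) and 0.14 (without oeNC-2), through oeSTUB1-1 (0.062), oeNC-3 (0.091) and oeNC-1 (0.11). At 11245 bases it is the longest gene of the module in this table, and oeSTUB1-2 was its highest library.

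PCNA, the sliding clamp and the most abundant RNA of the module, had 348, 335 and 310 FPKM in oeNC and 349, 466 and 366 FPKM in oeSTUB1. The groups did not overlap, though only narrowly in oeSTUB1-1, and oeSTUB1-2 stood far above the other 5 libraries. PCNA had a log2 fold change of 0.24 with a 95% interval from -0.05 to 0.53 (adjusted p = 0.24) and 0.12 without oeSTUB1-2 (limma, adjusted p = 0.19). PCNA also has processed pseudogenes, between which and the gene the counting could split fragments. RFC2 and RFC4, small loader subunits encoded by short genes, had log2 fold changes of 0.18 and 0.15, which were 0.06 and 0.00 without oeSTUB1-2. RFC1, the large subunit, had -0.14 and RFC5 had 0.09, and RFC3 was the only loader subunit that passed in either fit.

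The polymerases and primase were expressed at 2.90 (PRIM2) to 53.4 FPKM (POLD2) in oeNC, and none of the 9 genes passed with 6 libraries. POLA1, the catalytic subunit of the polymerase that makes the primers, had 7.14, 7.36 and 7.79 FPKM in oeNC and 9.18, 7.23 and 8.87 FPKM in oeSTUB1. Here oeSTUB1-2 lay among the oeNC values while the other 2 libraries stood above them. Its log2 fold change was 0.17 (adjusted p = 0.34), 0.28 without oeSTUB1-2 (limma, adjusted p = 0.019) and 0.25 with the length correction (adjusted p = 0.028). Its partners POLA2, PRIM1 and PRIM2 had 0.14, 0.04 and 0.16. POLE, on a gene of 8849 bases, had 15.5, 15.97 and 15.5 FPKM in oeNC and 16.4, 10.3 and 15.5 FPKM in oeSTUB1, and was chosen for display after its values were seen. Only oeSTUB1-2 was low, and the log2 fold change turned from -0.18 to 0.03 when that library was left out. The 3 subunits of polymerase delta had log2 fold changes from 0.08 (POLD1) to 0.20 (POLD2).

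RPA2, the middle subunit of the complex that coats single-stranded DNA, had 15.1, 13.9 and 14.3 FPKM in oeNC and 17.2, 21.5 and 17.6 FPKM in oeSTUB1. All oeSTUB1 values were above all oeNC values, and oeSTUB1-2 was the highest. The log2 fold change was 0.37 (SE 0.10, adjusted p = 0.051), and 0.27 without oeSTUB1-2, where it passed (limma, adjusted p = 0.012). RPA1 and RPA3, the other subunits, had -0.08 and 0.19, the latter being 0.00 without oeSTUB1-2.

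FEN1, like RPA2, was highest in oeSTUB1-2, with 45.6, 43.4 and 40.5 FPKM in oeNC and 54.0, 70.3 and 52.0 FPKM in oeSTUB1. The groups were apart, and the excess of oeSTUB1-2 raised the oeSTUB1 SD to 10.05 FPKM, against 2.56 FPKM in oeNC (n = 3 each). This gave a log2 fold change of 0.43 (SE 0.12, adjusted p = 0.056) with 6 libraries and 0.30 (limma, adjusted p = 0.010) without oeSTUB1-2. LIG1, the ligase that seals the fragments FEN1 trims, had a log2 fold change of -0.13, did not pass, and had all oeSTUB1 libraries below the oeNC libraries.

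Genes of deoxynucleotide supply were among the most abundant of the module, at 57.2 (RRM1) to 101 FPKM (TYMS) on average in oeNC, and 0 of 4 passed in either limma fit, where the lowest adjusted p was 0.20 with 6 libraries and 0.073 without oeSTUB1-2. The ribonucleotide reductase subunits RRM1 and RRM2 had log2 fold changes of 0.16 and -0.07. Thymidine kinase (TK1) and thymidylate synthase (TYMS), both on short genes, had 0.22 and -0.00, which became 0.04 and -0.13 without oeSTUB1-2. TYMS overlaps another gene on the opposite strand, and no source used here says whether strand was used in counting.

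Among the regulators of S-phase entry, CCNE2, a cyclin E that activates CDK2, gave the largest difference of the 51 genes in the fit with 6 libraries, while CDT1 gave the largest without oeSTUB1-2 and with the length correction. CCNE2 had 2.20, 2.36 and 2.51 FPKM in oeNC and 3.64, 3.41 and 3.25 FPKM in oeSTUB1, from 292 to 353 and 425 to 479 fragments. The groups were far apart, with means of 2.36 ± 0.156 and 3.44 ± 0.192 FPKM (SD, n = 3 each). The log2 fold change was 0.53 (SE 0.11, limma, adjusted p = 0.017), the same 0.53 without oeSTUB1-2 (adjusted p = 0.0091) and 0.50 with the length correction (adjusted p = 0.0080). Without oeNC-1, oeNC-2 or oeSTUB1-1 it missed the threshold (adjusted p = 0.088, 0.078 and 0.056), at log2 fold changes of 0.48, 0.53 and 0.48.

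The paralog CCNE1 was the more abundant of the pair, with 20.2, 19.5 and 19.5 FPKM in oeNC and 20.4, 24.3 and 21.3 FPKM in oeSTUB1. The groups did not overlap, by a narrow margin in oeSTUB1-1, and the log2 fold change of 0.15 did not pass (95% interval -0.05 to 0.35, limma, adjusted p = 0.30). CDK2, the kinase both cyclins activate, had a log2 fold change of -0.03. E2F1, an activator of the S-phase program, had 17.3, 15.6 and 17.3 FPKM in oeNC and 16.7, 22.9 and 17.5 FPKM in oeSTUB1. Only oeSTUB1-2 stood above the oeNC range by more than a small margin, and the log2 fold change was 0.17 (adjusted p = 0.41) and 0.03 without that library (95% interval -0.12 to 0.18). E2F2, a second activator, had -0.29 and did not pass (adjusted p = 0.15).

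**Figure D4:**
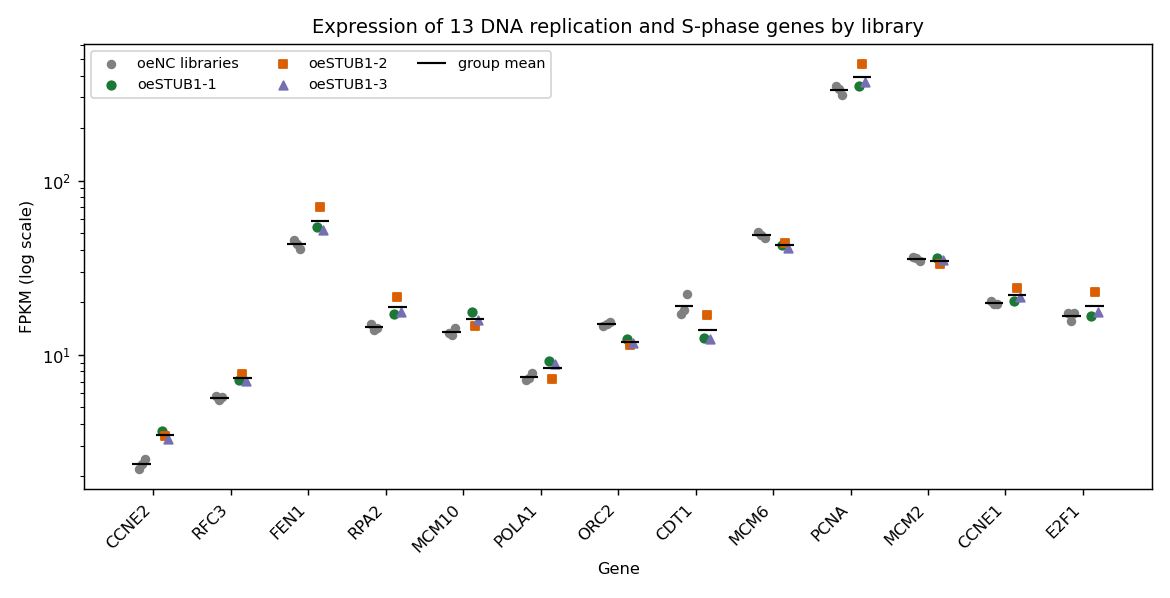
FPKM (log axis) of 13 genes in each library, with grey points for oeNC, coloured points for the oeSTUB1 libraries and a line at each group mean. CCNE2 and RFC3 are higher and ORC2 is lower in every oeSTUB1 library, FEN1, RPA2, PCNA and E2F1 show oeSTUB1-2 above the other oeSTUB1 libraries, and in POLA1 the oeSTUB1-2 point lies among the oeNC points.

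Other genes of the pathway were counted in the same way. Of 26 other regulators of the G1/S transition, 23 were tested, with a median log2 fold change of 0.03. In limma with 6 libraries 2 were higher and 0 lower, against 7.01% and 6.59% of all tested genes. Leaving out oeSTUB1-2 gave 5 higher (TFDP1, RBL1, CCND1, CDK6 and CDKN1A) and 2 lower (E2F8 and CCND3), against 14.8% and 12.0%. TFDP1, the partner that E2F factors need to bind DNA, had 28.6, 28.9 and 27.2 FPKM in oeNC and 35.6, 39.1 and 35.5 FPKM in oeSTUB1, a log2 fold change of 0.38 (limma, adjusted p = 0.016). CDKN1A, the CDK inhibitor p21, had 25.7, 26.2 and 24.9 FPKM in oeNC and 33.2, 36.6 and 33.7 FPKM in oeSTUB1, a log2 fold change of 0.43 (limma, adjusted p = 0.0086). In both genes every oeSTUB1 library was above every oeNC library, and without oeSTUB1-2 the log2 fold changes were 0.33 and 0.39. The call of TFDP1 was lost without any one of oeNC-1, oeNC-2 and oeNC-3 (adjusted p = 0.080, 0.076 and 0.081), and that of CDKN1A without oeNC-1 (0.055) or oeNC-3 (0.051).

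Of 36 other genes of the fork, of chromatin assembly and of nucleotide metabolism, 35 were tested, with a median log2 fold change of 0.04. With 6 libraries 1 was higher and 1 lower, against 7.01% and 6.59% of all tested genes. Without oeSTUB1-2 there were 4 higher and 3 lower, against 14.8% and 12.0%. POLE3, an accessory subunit of polymerase epsilon, had 26.5, 26.9 and 24.9 FPKM in oeNC and 36.0, 41.4 and 31.8 FPKM in oeSTUB1, a log2 fold change of 0.47 (limma, adjusted p = 0.024). ATAD5, which takes the PCNA ring off DNA, had 6.20, 6.30 and 6.80 FPKM in oeNC and 5.15, 3.68 and 4.80 FPKM in oeSTUB1, a log2 fold change of -0.51 (limma, adjusted p = 0.046). Both genes kept their separation in all libraries, and oeSTUB1-2, in which long genes were low, was the lowest for ATAD5, a gene of 8012 bases. Without that library the log2 fold change of ATAD5 was -0.36 (adjusted p = 0.012) and that of POLE3 was 0.37 (adjusted p = 0.0070). POLE3 missed the threshold without oeNC-1, oeNC-2, oeNC-3 or oeSTUB1-1 (adjusted p between 0.064 and 0.10), and ATAD5 without oeNC-1, oeNC-2, oeNC-3 or oeSTUB1-3 (between 0.073 and 0.15). With eBayes fitted without a trend both genes missed it (0.053 and 0.072), and ATAD5 also did with no filter on low values (0.078).

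UHRF1, which recognises hemimethylated DNA behind the fork, had 11.6, 11.1 and 10.7 FPKM in oeNC and 15.5, 12.2 and 12.9 FPKM in oeSTUB1. The groups did not overlap, and the log2 fold change was 0.27 with 6 libraries (limma, adjusted p = 0.13) and 0.34 without oeSTUB1-2 (adjusted p = 0.024). DNMT1, the maintenance methyltransferase, had 29.1, 28.4 and 30.0 FPKM in oeNC and 32.3, 23.6 and 30.8 FPKM in oeSTUB1. Here oeSTUB1-2 was the lowest of all 6 libraries and the other 2 oeSTUB1 libraries were the highest, so the log2 fold change was -0.03 with it (adjusted p = 0.90) and 0.11 without it (adjusted p = 0.13).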

How the data were processed

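RNA-seq libraries of TFK1 cells were grouped by their labels into oeNC (n = 3) and oeSTUB1 (n = 3). The authors deposited FPKM values for 23569 gene symbols. The submitters' processing notes name fastp 0.20.1, HISAT2 2.1.0, HTSeq 0.11.2, R 3.2.0, DESeq2 1.22.2 and GRCh38.p13, without roles, and the annotation and strand setting are not given in the sources used here. Deposited FPKM values are whole multiples of a step set by gene length and library total, and from these steps whole fragment numbers, lengths and totals were recovered for all 23569 genes. The smallest length that fitted was kept, so a common divisor may be missing from a gene's fragments and length. Chi-square per degree of freedom between the 6 replicate pairs was 3.44 to 80.2, so no library duplicated another.

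The 2 groups were tested in R 4.3.3 by limma 3.58.1 (linear fit and eBayes with a trend, two-sided), using log2(FPKM + 0.1) of the 15353 genes whose mean reached 0.1 FPKM, with Benjamini-Hochberg adjustment over all of them; fold changes are on this scale. Genes were called at an adjusted p under 0.05. The members, lists and tests were chosen with earlier results of these data known. All 6 values were given for members called with 6 libraries or without oeSTUB1-2 and for PCNA, MCM2, CCNE1 and E2F1. From each list of other genes up to 4 called genes were given, besides STUB1, UHRF1, DNMT1 and ORC4. ORC4 was added after its values were seen. Results were recomputed with a pseudocount of 1 or 0.01, a filter at 1 FPKM or none, quantile normalization or median-ratio scaling, no eBayes trend, a replicate block, a lowess correction for length (span 0.3) with and without that block, limma-voom on recovered fragments, and leaving out each library. On simulated data with 200 genes changed 2-fold, 200 were called with the right sign among 15350 tested, with 13 unchanged genes called. Only well-counted genes were changed and no library had a trend with gene length. The simulation therefore does not show how the smaller changes of these data are called. Promoters and chromosomes came from RefSeq tables of GRCh38.p14. Python 3.11.15 was used for the other steps.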

Additional observations from a re-analysis of the deposited data

How the results depend on the processing

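The count of replication genes called higher (2 with 6 libraries) was 3 under quantile normalization and 0 with the replicate block. It was 5 with the length correction and 3 with the replicate block and length correction together. When 1 library was left out it was between 0 and 6. The count called lower (1 with 6 libraries) was 2 under quantile normalization, 0 with the replicate block, 3 with the length correction, 3 with the replicate block and length correction together, and between 0 and 3 when 1 library was left out. Higher and lower counts were 0 and 0 without oeNC-1 or oeNC-2, 1 and 0 without oeNC-3 or oeSTUB1-3, 0 and 1 without oeSTUB1-1, and 6 and 3 without oeSTUB1-2. Leaving out a library lowers the number of samples; the cause of the other shifts was not tested. Under quantile normalization the median log2 fold change of the 51 genes went from 0.11 to 0.063, and the median log2 differences of oeSTUB1-1, oeSTUB1-2 and oeSTUB1-3 went from 0.081, 0.16 and 0.011 to 0.045, 0.061 and -0.046. The log2 fold change of DNMT1 turned from -0.03 to 0.11 without oeSTUB1-2 and was -0.11 without oeSTUB1-1. Of 340 values of single named genes over the alternatives, 285 kept direction and side of the threshold, 34 lost the call, 20 gained it and 1 turned. Same-numbered libraries had deviations correlated at -0.05, -0.05 and 0.06 over genes, and other pairs had -0.10 to 0.11. With 3 libraries in a group these values cannot show whether same-numbered libraries were paired, and no source used here says so. With the replicate block, which uses degrees of freedom, adjusted p was 0.056 for CCNE2, 0.075 for ORC2, 0.086 for RFC3 and 0.062 for ATAD5, and with the block and length correction together UHRF1 passed (0.041).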
